A study of Mus musculus with 27 samples.

Results

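Lamin B1 regions seen at 8 h only are stretches of the mouse genome that carried a lamin B1 ChIP-seq peak in NMuMG cells after 8 h of TGF-β and none in untreated cells or after 24 h. The peaks of the 3 lamin B1 lists were merged wherever they touched or overlapped, which gave 13306 regions, and 4439 of them held an 8 h peak with no peak from either other time (33.36%, 95% Wilson interval 32.56 to 34.17). As deposited they formed the most numerous class, ahead of the 2574 regions with peaks at 8 and 24 h, the 2431 with peaks at all 3 times, the 1692 seen at 24 h only and the 1002 seen in untreated cells only. A further 902 regions had peaks in untreated cells and at 8 h, and 266 in untreated cells and at 24 h. Because the class was chosen from the peak lists, its peaks and their MACS scores are described here and not tested.

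All samples of the study came from NMuMG cells, an established mouse line with the epithelial character of the mammary gland. TGF-β, given in the labels at 1 to 5 ng/ml, was used to drive epithelial-to-mesenchymal transition (EMT). Lamin B1 ChIP was done on a euchromatin-enriched fraction obtained by low sonication, with a single antibody (Abcam ab16048), in untreated cells and after 8 or 24 h of TGF-β. For each time 2 ChIPs were mixed and sequenced as 1 library, and ATAC-seq likewise has 1 library per time, so no region has an error between replicates. RNA-seq was done on 2 libraries per time of parental cells, and on 2 libraries per time of cells infected with an irrelevant shRNA (control cells) or with an shRNA against lamin B1 (KD cells), each untreated or treated for 8 or 24 h. The methods call the RNA libraries biological replicates. The infected cells were not described as clones, and the RNA tables do not show which pool of lamin B1 protein the shRNA lowered.

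Lamins are the intermediate filament proteins of the nuclear lamina, the meshwork under the inner nuclear membrane. Lamin B1 and lamin B2 are the B-type lamins, and the classical lamina-associated domains that they touch are long, A/T-rich, gene-poor and mostly silent. The study asked where lamin B1 instead meets open, gene-rich chromatin as epithelial cells change to a mesenchymal state. During that change epithelial adhesion genes are known to fall and matrix genes such as fibronectin and collagens to rise. CpG islands, stretches in which the CG dinucleotide has not been lost from the genome, mark the starts of most housekeeping genes and many developmental genes.

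The sequences of several regions show the range that the class covers. Each is the part of the region just upstream of an annotated gene start, up to 300 bases, or a coding exon inside it, read from NCBIM37 (mm9), 5′ to 3′ on the strand of the gene, with every CG dinucleotide in capitals. Col5a1 and Nt5e, whose transcripts rose with TGF-β, and Suz12, which fell, are shown for their dense CG. Cx3cl1 and Foxa2, whose transcripts fell, are shown for their sparse CG. Lmnb2 is shown as the lamina gene of the class, and Rltpr as the coding exon under the highest score of any member in an exon.
Col5a1 (chr2:27741645-27741944, plus strand): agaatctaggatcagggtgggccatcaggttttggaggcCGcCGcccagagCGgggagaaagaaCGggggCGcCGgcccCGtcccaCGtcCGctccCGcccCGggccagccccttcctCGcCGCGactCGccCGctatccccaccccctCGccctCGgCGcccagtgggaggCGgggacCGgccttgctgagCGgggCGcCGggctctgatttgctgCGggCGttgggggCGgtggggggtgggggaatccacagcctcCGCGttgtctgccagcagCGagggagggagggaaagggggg
Nt5e (chr9:88222147-88222446, plus strand): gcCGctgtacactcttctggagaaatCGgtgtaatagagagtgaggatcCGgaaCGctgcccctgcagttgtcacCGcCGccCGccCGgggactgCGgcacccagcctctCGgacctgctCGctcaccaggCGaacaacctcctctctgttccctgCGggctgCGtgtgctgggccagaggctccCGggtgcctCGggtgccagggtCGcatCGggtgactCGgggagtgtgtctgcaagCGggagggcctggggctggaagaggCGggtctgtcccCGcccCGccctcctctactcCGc
Suz12 (chr11:79806308-79806607, plus strand): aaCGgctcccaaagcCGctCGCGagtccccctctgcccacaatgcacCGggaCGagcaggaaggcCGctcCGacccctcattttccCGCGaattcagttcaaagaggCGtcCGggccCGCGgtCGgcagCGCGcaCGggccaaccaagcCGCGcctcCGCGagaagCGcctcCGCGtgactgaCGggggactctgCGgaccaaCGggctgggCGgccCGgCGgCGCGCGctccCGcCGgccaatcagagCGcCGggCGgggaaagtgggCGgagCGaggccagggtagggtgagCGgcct
Cx3cl1 (chr8:97295609-97295908, plus strand): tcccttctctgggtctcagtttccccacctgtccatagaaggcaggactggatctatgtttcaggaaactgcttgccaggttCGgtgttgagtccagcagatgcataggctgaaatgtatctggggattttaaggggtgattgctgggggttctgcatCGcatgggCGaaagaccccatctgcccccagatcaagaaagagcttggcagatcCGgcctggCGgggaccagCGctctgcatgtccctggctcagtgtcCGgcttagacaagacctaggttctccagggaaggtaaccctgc
Foxa2 (chr2:147872706-147872951, minus strand): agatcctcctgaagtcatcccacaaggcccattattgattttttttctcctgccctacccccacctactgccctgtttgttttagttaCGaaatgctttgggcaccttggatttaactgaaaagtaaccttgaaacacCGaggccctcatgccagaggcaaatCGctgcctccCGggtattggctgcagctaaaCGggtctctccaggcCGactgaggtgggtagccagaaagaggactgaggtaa
Lmnb2 (chr10:80380991-80381229, minus strand): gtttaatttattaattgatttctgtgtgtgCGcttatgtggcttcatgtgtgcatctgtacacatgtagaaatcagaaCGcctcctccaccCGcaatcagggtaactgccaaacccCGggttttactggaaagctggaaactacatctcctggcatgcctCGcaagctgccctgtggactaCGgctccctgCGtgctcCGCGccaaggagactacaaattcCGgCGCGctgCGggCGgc
Rltpr (chr8:108217914-108218149, plus strand): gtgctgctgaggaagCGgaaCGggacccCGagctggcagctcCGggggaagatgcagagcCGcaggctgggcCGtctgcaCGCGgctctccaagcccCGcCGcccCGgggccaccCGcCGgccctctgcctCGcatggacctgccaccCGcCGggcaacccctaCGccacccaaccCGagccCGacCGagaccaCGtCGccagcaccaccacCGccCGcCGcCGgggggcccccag
The Suz12 stretch held 42 CG dinucleotides in 300 bases, and its ratio of observed to expected CG was 1.06. The Col5a1 stretch held 30 and the Nt5e stretch 24, and the Lmnb2 stretch held 14 in 239 bases. In contrast, the Cx3cl1 stretch held 7 in 300 bases (ratio 0.30) and the Foxa2 stretch 6 in 246 bases (ratio 0.38). The Rltpr exon held 26 in 236 bases, with a GC content of 76.7%, so that CG was as dense in this coding exon as at several of the gene starts.

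The members were split between gene starts and exons. Of the 4439 members, 1833 lay within 500 bp of an annotated gene start (41.29%, interval 39.85 to 42.75), 419 between 500 and 2500 bp from one (9.439%), 1325 in an exon outside these windows (29.85%, 28.52 to 31.21), 330 in an intron (7.434%) and 532 outside genes (11.98%). In the regions with peaks at all 3 times 82.6% lay at a gene start and 9.338% in an exon. In those with peaks at 8 and 24 h the shares were 73.31% and 13.52%, and in those seen at 24 h only they were 51.89% and 16.08%. The 8 h only class thus had the lowest share at gene starts and the highest share in exons of these 4 classes, and its intervals did not overlap theirs. Classes with a peak in untreated cells but not at all times were not compared here. Neither share is therefore shown to be particular to the members. Wilson intervals here cover counting error only, since each list comes from a single library.

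The members in exons lay mostly on coding sequence, although 24.45% of them were within 500 bp of the start of another annotated transcript of a gene. Of the 1325, 1220 overlapped a coding stretch (92.08%), 598 overlapped the last exon of a transcript (45.13%) and 283 its first exon (21.36%). The longest exon that they touched had a median length of 415 bp, against 144 bp for all annotated exons, and in 45.74% of them it was at least 500 bp long. A region about 900 bp wide meets a long exon more readily than a short one, and no allowance was made for this. Where a member lay within 1000 bp of a gene start (1740 members), its centre was a median of 178 bp downstream of the start, and 83.1% of these centres were downstream. The same share was 84.98% for the regions with peaks at all times.

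**Figure D1:**
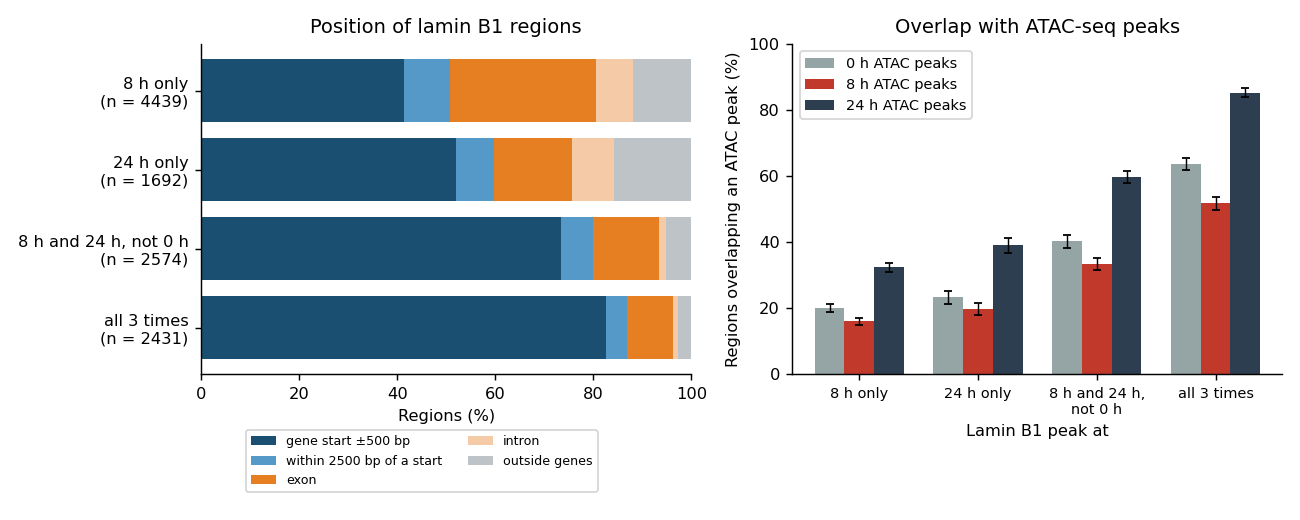
Left, position of the regions in genes as stacked shares of each class (percent of regions). Right, share of regions that overlapped an ATAC-seq peak of untreated, 8 h or 24 h cells (percent), with 95% Wilson intervals as error bars. The 8 h only class had 41.29% of regions at gene starts and 29.85% in exons, and its ATAC shares (19.94%, 16.06% and 32.46%) were the lowest of the 4 classes drawn.

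Over all scores the members were less CpG-rich than the 3 other classes compared. Their mean GC content was 58.97% ± 5.587 (SD over 4439 regions), and their median ratio of observed to expected CpG was 0.5606, against 0.7905 in regions with peaks at all times, 0.7794 in those at 8 and 24 h and 0.7179 in those at 24 h only. Regions with a ratio of at least 0.6 and a GC content over 50%, here called island-like, made up 44.02% of the members and 88.85%, 84.34% and 63.77% of these other classes in that order. Classes with a peak in untreated cells but not at all times were left out of this comparison. Low CpG is therefore not shown to be particular to the members. Within the class the ratio varied with position, and classes were not compared within a position. At gene starts 78.12% of the members were island-like (median ratio 0.733), in exons 14.64% (median ratio 0.3826). Members in introns and outside genes also had low ratios (0.3576 and 0.4349).

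Most members had no open chromatin call. An ATAC-seq peak of untreated cells overlapped 885 members (19.94%, with an interval of 18.79 to 21.14). The 8 h ATAC peaks overlapped 713 members (16.06%, 15.01 to 17.17) and the 24 h ATAC peaks 1441 (32.46%, 31.1 to 33.85). The 24 h ATAC list held 33811 peaks against 9782 in untreated cells and 10340 at 8 h, and with the 3 lists cut to equal length the 24 h share of members was 17.89%. Of the members, 2993 had no ATAC peak at any time (67.43%), 612 had one at all times (13.79%), and 460 had one at 24 h only (10.36%). Regions with lamin B1 peaks at all times overlapped ATAC peaks in 63.68%, 51.75% and 85.31% at the 3 times, and 14.07% of them had none. Again position separated the members: 41.52%, 33.12% and 63.01% of those at gene starts overlapped an ATAC peak at the 3 times, compared with 2.943%, 2.792% and 6.943% of those in exons. At the time of their lamin B1 peak the members thus overlapped ATAC peaks no more often than before or after it.

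Short sequence motifs were counted in windows whose mean GC content was 63.56% in members, 70.84% in regions with peaks at all times and 57.88% at coding gene starts. In the central 300 bases of each member, on both strands, the SMAD-binding motif CAGAC was found in 53.44% of members, 39.04% of regions with peaks at all times and 49.43% of windows of the same length centred on all 22379 coding gene starts. Motifs of G and C alone, which can share bases with each other, were less frequent in members than in regions with peaks at all times. The motif GGCGC occurred in 61.48% of members, 86.3% of regions at all times and 48.6% of coding gene starts. For GGCCG these shares were 64.2%, 87.29% and 48.0%, and for GGGCGG they were 43.82%, 69.6% and 45.73%. The E-box motif CANNTG was found in 71.32% of members, 54.09% of regions at all times and 67.35% of gene starts. The AP-1 motif TGANTCA occurred in 3.762%, 2.509% and 5.988%, the TEAD motif GGAATG in 10.02%, 6.17% and 12.45%, and CCAAT in 20.88%, 14.19% and 35.7%. A match says only that these letters are in the window.

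The scores of the members lay close to the lowest score in the lists. MACS scores of the members had a median of 66.01 (interquartile range 56.59 to 80.73) and ran from 50.02 to 453.28, and 886 members scored between 50 and 55. Regions at 8 and 24 h had a median 8 h score of 86.47 and regions at all times one of 128.0. Among all regions with an 8 h peak, 71.31% of those scoring 50 to 60 were members, falling to 57.19% at 60 to 80, 37.06% at 80 to 100 and 14.79% at 100 or more. The members were also narrower, their median width being 886 bp where that of regions at 8 and 24 h was 1153 bp. The lists give no reads and no signal between peaks, so lamin B1 that was just under the peak threshold at 0 or 24 h cannot be told apart from none. The 8 h list was also the longest, with 10484 peaks against 4645 and 7083, and with the lists cut to equal length by score 1272 regions of 8266 were seen at 8 h only (15.39%), fewer than the 1400 then seen at 24 h only and the 1742 seen in untreated cells only.

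Position depended on score within the class as well. The share of members at a gene start was 32.84% at scores of 50 to 60 and rose with score to 71.23% at 150 or more, where 73 members lay. In regions with peaks at 8 and 24 h this share was 71.03% in the lowest of these score bands and 73.62% in the highest. Thus the lack of gene starts was largest among the low-scoring members. The 504 members scoring 100 or more were at a gene start in 57.54%, in an exon in 23.02%, and overlapped an ATAC peak in 27.38%, 22.22% and 42.86% at the 3 times.

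**Figure D2:**
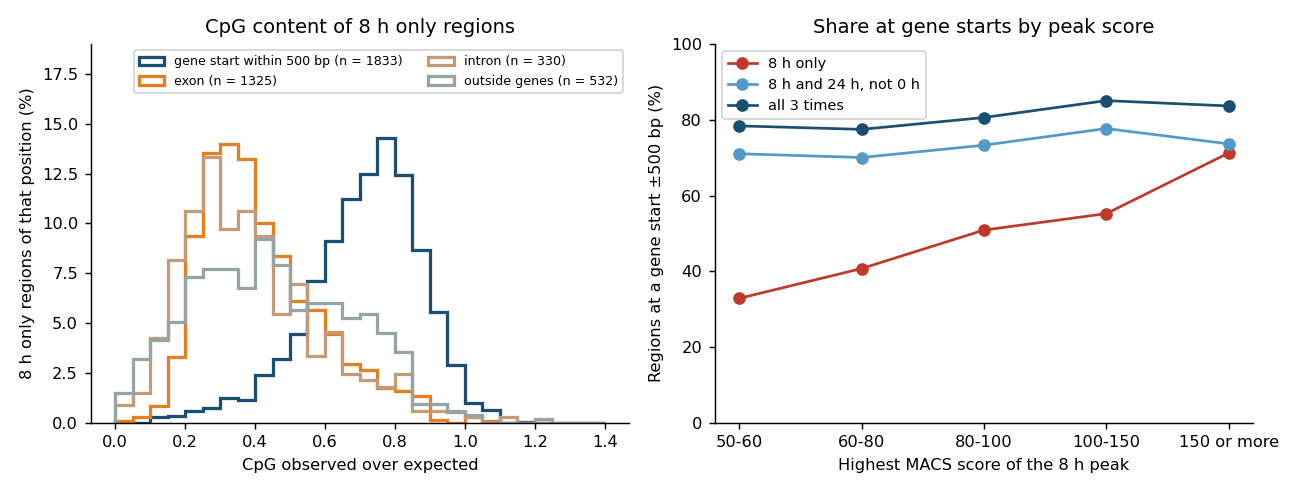
Left, distribution of the ratio of observed to expected CpG in the 8 h only regions, as percent of the regions of each position. Right, share of regions at a gene start (percent) by the MACS score of the 8 h peak, for the 8 h only class, the class at 8 and 24 h and the class at all times. Members in exons centre on a ratio of 0.3826 and those at gene starts on 0.733, and the share of members at gene starts climbs from 32.84% to 71.23% with score.

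At the edges of the rule a few bases decided membership. The member nearest to a peak of another time, chr2:104656950-104657569 in Qser1 (score 51.17), lay 2 bp from a peak of untreated cells, and one at Zfp36l3, chrX:51078603-51079504 (score 57.45), lay 8 bp from a 24 h peak. Just outside the rule, chr5:143667943-143668679 (score 105.31) overlapped a 24 h peak by 1 bp. In all 245 members (5.519%) had a peak of 0 or 24 h within 1000 bp, 1186 (26.72%) within 10 kb (10000 bp) and 3296 (74.25%) within 100 kb (100000 bp). The lowest score belonged to the region at the start of Glra1, a glycine receptor subunit (50.02). By chromosome the members made up between 22.96% of regions on chromosome 19 and 43.37% on the X chromosome.

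The highest scores fell on 2 neighbouring regions of chromosome 11. The region chr11:3030190-3041126, 10937 bp wide with a score of 453.28, touched Sfi1 and the annotated pseudogene Pisd-ps1, and its CpG ratio was 0.1413. The next, chr11:3049335-3051912 (score 268.63), lay at the start of Gm11400. They were followed by the start of Fgf8, a growth factor of embryonic patterning (chr19:45815572-45817420, score 226.65), the Rltpr exons (chr8:108217377-108219614, 210.06), and the starts of Npr3, the natriuretic peptide clearance receptor (chr15:11833254-11835519, 207.0), Fam123a (chr14:60996505-60998143, 197.73), Cldn23, a tight junction claudin (chr8:36888399-36890126, 192.83), and Fat4, a large protocadherin (chr3:38784029-38786460, 185.44). A region 2429 bp wide near Zfp574 scored 193.76, and the shared start of Ankrd16 and Fbxo18 scored 185.16. Several of these genes had little transcript. Fgf8 was listed at 0 FPKM in all 6 parental libraries, Npr3 ran from 0.105 to 0.939 FPKM, Cldn23 from 0.108 to 0.404 and Fat4 from 0.53 to 0.884, while Ankrd16 ran from 3.71 to 4.63 and Fbxo18 from 17.7 to 26.4. Levels of the other genes of these regions are not given here. The widest regions after the first, on Heatr7b1 (2948 bp) and in an intron of Arfgap3 (2852 bp), had CpG ratios of 0.1669 and 0.2549.

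Several genes held more than 1 member, and the following were chosen after their values were seen. Grin1, an NMDA receptor subunit, held 6 members between its first and last exons and no peak of another time, with scores from 53.01 to 102.89 and no ATAC peak on any of them. Its transcript was at or under 0.04005 FPKM in every parental library. Ltbp4, a latent TGF-β binding protein of the matrix, held 5 members (scores 54.78 to 74.98) and was transcribed at 2.37 to 3.71 FPKM. Jak3, a cytokine receptor kinase, held 4, and Bmp7, a ligand of the TGF-β family, held 3, of which the one at its start scored 142.27. Counted from 2500 bp upstream to the 3′ end, 3081 protein-coding genes held 1 member, 394 held 2 and 79 held 3. Fewer held 4 or more, up to 41 in Gm20388. Most genes with a member thus held 1, and other classes were not counted in this way.

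The genes that start at a member were, as a group, transcribed at middling levels. Members lay at the starts of 2079 annotated genes, 1840 of them protein-coding, and 1870 were matched to the parental expression table and 1831 to the shRNA table. Expression is given as FPKM (fragments scaled to transcript length and to the number of mapped fragments). In the parental cells the median gene of the class was at 5.056, 4.828 and 5.161 FPKM at 0, 8 and 24 h, and 63.16% were at 1 FPKM or more in untreated cells. In untreated cells the median was 14.47 FPKM for genes with lamin B1 at their start at all times, 7.747 for those at 8 and 24 h, 5.606 for those at 24 h only and 0.0419 for genes with no lamin B1 peak, of which 33.71% reached 1 FPKM. The median over all genes of the table was 0.508 FPKM. At 8 h the median of the class was thus slightly lower than in untreated cells, and so was that of all genes (0.450 FPKM).

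The count of genes past the test was close to the background in every comparison of parental cells. Genes that reached 1 FPKM in 2 or more libraries were tested with limma on log2(FPKM + 1), which understates changes of low genes, and called at an adjusted p under 0.05. A total of 1215 genes of the class were tested. At 8 h against untreated cells 652 were called (53.7%, against 54.5% of all 11309 genes tested). Of these 257 rose (21.2%, against 22.4% of all genes) and 395 fell (32.5%, against 32.1%). At 24 h 859 were called (70.7%, against 70.5%), 401 rising (33.0% against 33.4%) and 458 falling (37.7% against 37.1%). From 8 to 24 h, 638 were called (52.5%, against 51.8%), with 359 higher (29.5% against 27.7%) and 279 lower (23.0% against 24.0%). Without either 24 h library fewer were called, both in the class and over all genes. The 8 h and 24 h comparisons share the untreated libraries. The median change of the class was -0.05 on the log2 scale at 8 h and -0.03 at 24 h, and that of all genes was -0.05 and -0.02. At 8 h 26 members rose and 17 fell by at least 2-fold, where 4.3% of all genes moved that far in either direction, and at 24 h 57 rose and 65 fell, where 11.8% did.

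**Figure D3:**
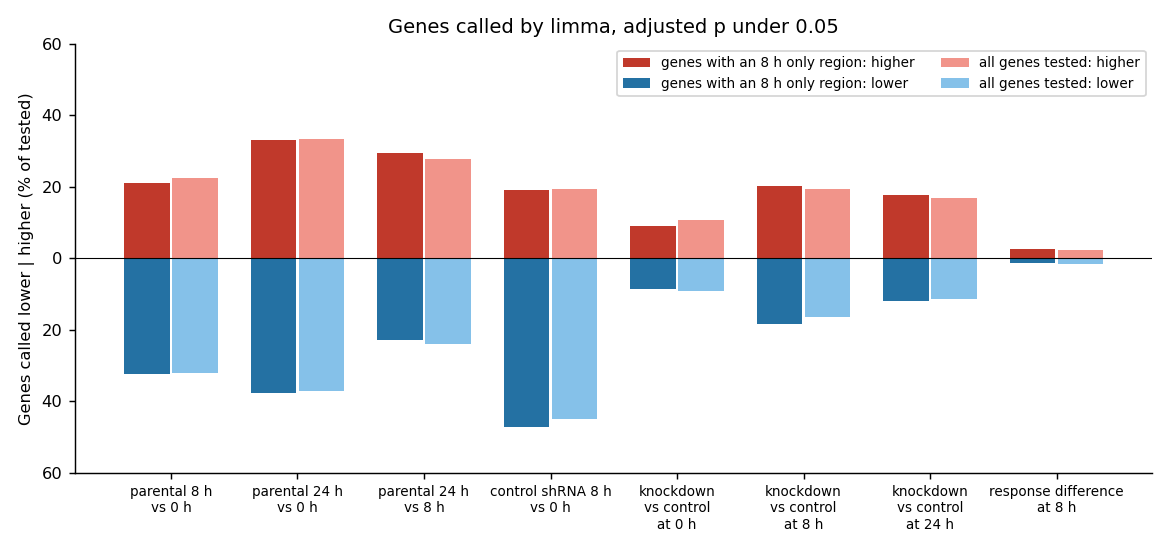
Share of tested genes called higher (above the line) or lower (below it) by limma in each comparison (percent), for genes with an 8 h only region at their start in dark bars and for all genes tested in pale bars. The paired bars lie close together, for instance 20.2% against 19.3% higher between KD and control cells at 8 h.

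Among members named by rule, the cell surface gene Nt5e was in the 5 largest rises at 8 h and at 24 h. The collagen gene Col5a1, named from a gene list, rose less. Nt5e, which encodes the ecto-5′-nucleotidase CD73, was at 1.55 and 1.35 FPKM in the 2 untreated libraries, 10.1 and 9.44 at 8 h, and 27.5 and 28.4 at 24 h. The change was 2.13 ± 0.06 (log2, SE) at 8 h (limma, adjusted p = 1.08e-05) and 3.56 ± 0.06 at 24 h. The rule that named Nt5e required that its treated and untreated libraries not overlap. Its region, chr9:88222097-88223007, scored 100.35 and overlapped an ATAC peak at 24 h only. Col5a1, the α1 chain of the fibril-regulating type V collagen, was at 3.91 and 4.47 FPKM, then 13.9 and 11.9 at 8 h, and 28.2 and 29.1 at 24 h. It rose by 1.42 ± 0.08 at 8 h (adjusted p = 4.34e-05) and by 2.52 ± 0.08 at 24 h, and its region (chr2:27741407-27743017, score 155.15) also overlapped an ATAC peak at 24 h only.

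The mesenchymal list of 20 genes held 1 member, Fn1, the gene of the matrix glycoprotein fibronectin. Its transcript was at 53.0 and 64.4 FPKM in untreated cells, 92.8 and 106.6 at 8 h, and 486.4 and 502.7 at 24 h, rising by 0.76 ± 0.10 at 8 h (limma, adjusted p = 0.000784) and by 3.06 ± 0.10 at 24 h. Thus the larger part of its rise came after the time of the lamin B1 peak (chr1:71699073-71700392, score 161.54). The region also covers coding exons of Apol7d on the other strand, so it cannot be assigned to Fn1 alone. In the whole list 10 of 18 tested genes rose at 8 h and 15 at 24 h.

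Of the 44 collagens listed, 5 had a member at their start, and all 4 that were tested rose at both times, where 22.4% of all genes rose at 8 h and 33.4% at 24 h. Their median change was 0.87 at 8 h and 1.20 at 24 h, where the medians of all genes were -0.05 and -0.02. Besides Col5a1, these were Col18a1, a basement membrane collagen (109.7 and 113.0 FPKM in untreated cells, 224.1 and 206.4 at 8 h, 320.9 and 319.7 at 24 h), Col27a1, a cartilage-type fibrillar collagen (7.31 and 7.45, then 14.4 and 12.8, then 14.2 and 14.8), and Col16a1 (1.71 and 1.91, then 3.19 and 3.26, then 3.39 and 3.12). Col16a1 and Col27a1 reached their new level by 8 h, while Col5a1 and Col18a1 went on rising. Col13a1, under a region scoring 158.93, was at or under 0.0428 FPKM in every parental library. Over all collagens, 10 of 17 tested genes rose at 8 h and 14 at 24 h, so the rise was not limited to those with a member.

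Among the Eph receptors and ephrins, contact signals between neighbouring cells, 5 of 21 genes were members. Efnb1, a transmembrane ephrin, was at 11.1 and 10.9 FPKM in untreated cells, 29.1 and 25.9 at 8 h, and 22.4 and 21.9 at 24 h, a rise of 1.25 ± 0.06 at 8 h (limma, adjusted p = 3.17e-05). Efna4 rose by 0.82 ± 0.09 and Efna3 by 0.60 ± 0.14, the latter no longer called without 1 untreated library. The receptor Ephb4 fell by 0.32 on the log2 scale, and Epha6 was listed at 0 in all parental libraries. In the list as a whole 8 of 14 tested genes rose and 6 fell at 8 h.

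Members at genes of TGF-β signalling moved in different ways. Id3, an inhibitor of basic helix-loop-helix factors and a target of BMP signals, was at 86.9 and 73.2 FPKM in untreated cells, 22.6 and 24.6 at 8 h, and 71.4 and 75.4 at 24 h. The 8 h libraries stood apart from all others, and the change was -1.71 ± 0.08 at 8 h (limma, adjusted p = 3.32e-05) and -0.12 ± 0.08 at 24 h (adjusted p = 0.24). In parental cells Id3 was thus low at the time its region (chr4:135699432-135701284, score 147.66) had a peak, and it rose again by 1.60 from 8 to 24 h. In control shRNA cells the return was partial, at 42.4 and 39.9 FPKM at 24 h against 89.4 and 68.9 in untreated cells. Tgif1, a homeodomain corepressor of SMAD proteins, rose from 37.96 and 39.4 FPKM to 61.6 and 56.9 at 8 h and 66.8 and 64.9 at 24 h. The other members of this list of 41, Bmp7 and Smad9, stayed under 1 FPKM in every parental library. Across the list 22 of 35 tested genes rose and 8 fell at 8 h.

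**Figure D4:**
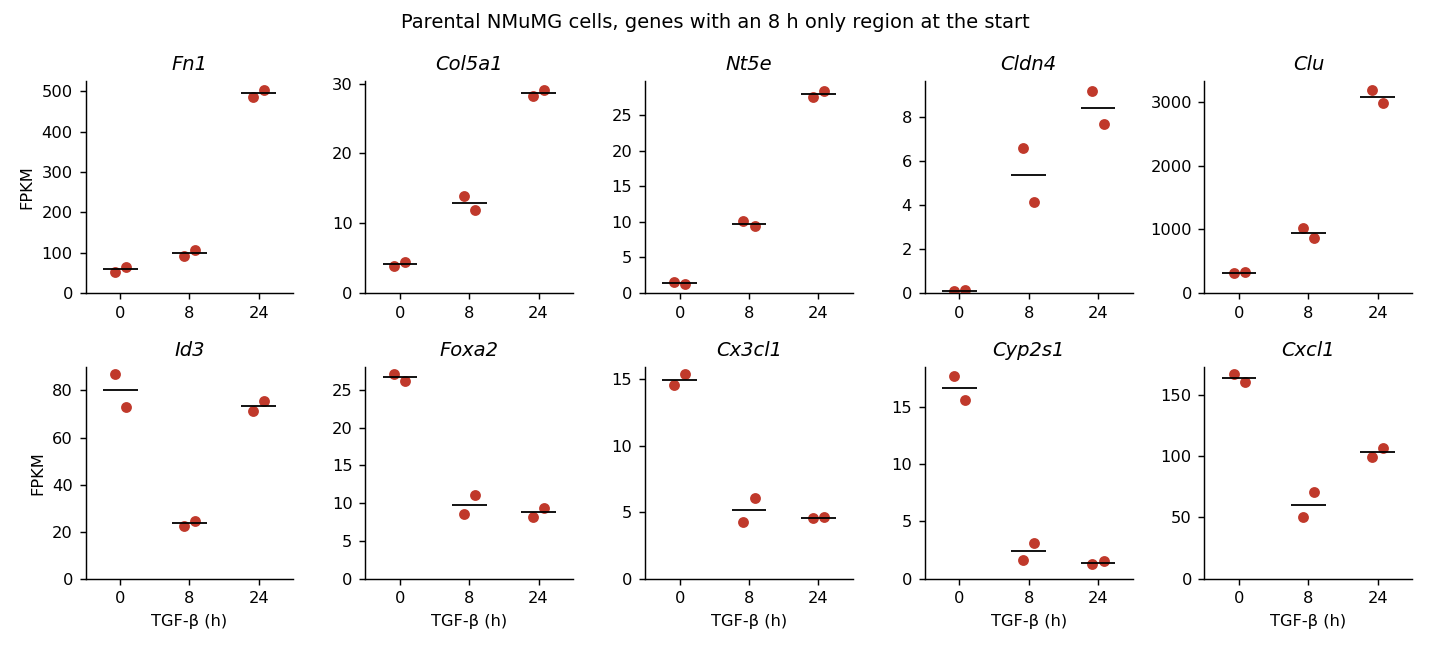
Expression (FPKM, linear axes from 0) of 10 genes with an 8 h only region at their start by hours of TGF-β in parental cells, with a point for each of the 2 libraries of a time and a line at their mean. Nt5e, Col5a1 and Fn1 climb through 24 h, Foxa2 and Cx3cl1 are low from 8 h on, and Id3 is low at 8 h (22.6 and 24.6) and back at 71.4 and 75.4 by 24 h.

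The epithelial list of 20 genes held 4 members that did not move together. Cldn4, a tight junction claudin, rose from 0.0923 and 0.147 FPKM to 6.61 and 4.15 at 8 h and 9.19 and 7.69 at 24 h, a change of 2.48 ± 0.17 at 8 h (limma, adjusted p = 7.09e-05). Cldn4 passed the filter on low values through the treated libraries alone, so its test is no independent support, and the same holds for Tmeff1 and Efna3. Esrp2, a splicing regulator of epithelial isoforms, and Tjp1, the tight junction scaffold ZO-1, were not called at 8 h (-0.12 ± 0.06 and -0.06 ± 0.06) and fell by 0.60 and 0.51 at 24 h. Epcam stayed between 0.171 and 1.17 FPKM in the parental cells and was not tested there. In the whole list 5 of 14 tested genes rose and 7 fell at 8 h, and 10 fell at 24 h.

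The other large rises and falls covered varied functions. At 8 h Whrn, a scaffold protein of stereocilia, rose by 2.27 ± 0.10, Spsb1, a ubiquitin ligase adaptor, by 2.07 ± 0.06, and Smoc2, a matricellular protein, by 1.83 ± 0.06. Whrn went from 2.95 and 3.23 FPKM to 21.03 and 16.6 at 8 h and to 32.8 and 30.9 at 24 h. By 24 h the extracellular chaperone Clu rose from 312.9 and 324.1 FPKM to 3181 and 2974, and Tmeff1 from 0.265 and 0.211 to 11.6 and 10.9. All of these passed the test at 8 h and at 24 h.

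Among the falls, Cyp2s1, a cytochrome P450, went from 17.7 and 15.6 FPKM to 1.62 and 3.14 at 8 h (-2.42 ± 0.20, limma, adjusted p = 0.000121) and 1.25 and 1.56 at 24 h. Foxa2, a pioneer transcription factor of endoderm and epithelia, went from 27.1 and 26.2 to 8.51 and 11.1 and then 8.23 and 9.36 (-1.37 ± 0.11 at 8 h). The chemokine Cx3cl1 went from 14.5 and 15.4 to 4.23 and 6.06 and then 4.57 and 4.60, and Cxcl1 from 167.0 and 160.4 to 50.6 and 70.4 before a partial return to 99.3 and 106.8. Dhrs3, a retinaldehyde reductase, fell by 1.64 on the log2 scale at 8 h and was at 7.86 and 9.14 FPKM at 24 h after 3.13 and 4.66. The largest falls at 24 h were, after Cyp2s1, those of Psat1, of serine synthesis (-1.97), Chchd10 (-1.73), the protease inhibitor Spint2 (-1.70) and the chromatin protein Hmgb2 (-1.64). The returns of Cxcl1 and Dhrs3 were seen in parental cells. In control shRNA cells Cxcl1 went from 52.6 and 45.6 FPKM to 4.56 and 4.54 at 8 h and 6.91 and 5.40 at 24 h, and Dhrs3 from 19.3 and 13.1 to 1.54 and 1.72 and then 1.82 and 2.04.

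The lamina list of 13 genes held 1 member, Lmnb2, which encodes the other B-type lamin. Lmnb2 was at 20.2 and 21.1 FPKM in untreated cells, 16.5 and 16.6 at 8 h, and 15.05 and 15.3 at 24 h, a change of -0.30 ± 0.04 at 8 h (limma, adjusted p = 0.0012). Suz12, a core subunit of Polycomb repressive complex 2 and the only member of the 21 Polycomb and Trithorax genes, went from 43.3 and 44.0 to 32.2 and 32.1 and then 26.6 and 25.2 (-0.43 ± 0.04 at 8 h). No gene of the genome architecture list, which holds CTCF and cohesin subunits, was among the members.

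Most developmental regulators among the members had little or no transcript. Of 38 Hox genes 6 had an 8 h only region at their start (Hoxa7, Hoxa9, Hoxc8, Hoxc9, Hoxc10 and Hoxd3), and of 136 other developmental transcription factors 17 did, where 8.518% of all matched genes did. Hoxa7 was at 0.644 to 1.18 FPKM in the parental libraries, and Hoxc9, Hoxc10 and Hoxd3 were listed at 0 in all of them. Of the 17, Foxa2 and Foxn2 passed the filter and both fell at 8 h, and the others, Sox3, Sox8, Sox18, Tbx1, Tbx3 and Lhx9 among them, had group means of at most 0.472 FPKM in the parental cells. The Notch list of 18 held Dll4, Hey1 and Hey2, of which only Hey1 was tested and fell (-0.64 ± 0.08 at 8 h). The Wnt list of 49 held Dkk3, Wnt11, Wnt2b and Wnt5a, and Wnt5a rose at 24 h by 0.70 after a change of 0.25 ± 0.09 at 8 h (limma, adjusted p = 0.0522). The integrin and laminin list of 42 held Itga1 and Itga9, the YAP/TEAD list of 14 held Tead3 (0.36 at 8 h and 0.68 at 24 h, called at both), the interferon list Bst2 and the proliferation list Bub1, both lower at both times. At 24 h Bst2 was not called without 1 untreated or 1 of the 24 h libraries, and the same held for Hey1.

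Of 79 cytosolic ribosomal protein genes 18 were members, and of 1086 olfactory receptor genes 1 was (0.092%). Of the 18 ribosomal members 1 fell at 8 h and 10 at 24 h (32.1% and 37.1% of all genes fell), with a median change of -0.16 at 24 h. Quantile normalization ended 8 of the 10 calls at 24 h, and 4 of these (Rpl6, Rpl23, Rps6 and Rps25) then had values above 0. The call at 8 h, of Rpl38, was lost without any 1 of 3 libraries, with no filter and with only the groups compared. Over the whole list 44 of 76 fell at 24 h as deposited.

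In control cells infected with an irrelevant shRNA, the 8 h response was measured again in separate libraries. Of 1208 genes of the class tested there, 803 were called (66.5%, against 64.3% of all 11450 genes), 232 rising (19.2% against 19.4%) and 571 falling (47.3% against 44.9%). The median change was -0.15 in the class and -0.14 over all genes. With quantile normalization, which moved the median of all genes to -0.02, the calls in the class were 329 rises (27.24%, against 26.92% of all genes) and 407 falls (33.69% against 31.65%). The parental and control responses share no library. Of the 652 members called in parental cells 528 were also called in control cells (80.98% of the parental calls and 65.75% of the control calls). Of these 528, 519 moved the same way (98.3%). Over all genes the 3 shares were 77.45%, 64.84% and 97.97%. Nt5e, Col5a1, Cldn4 and Whrn rose in control cells by 2.37, 2.28, 3.06 and 3.28, and Id3, Foxa2, Cxcl1 and Cyp2s1 changed by -2.29, -2.39, -3.17 and -3.64. In untreated control cells Cldn4 was at 0.0204 and 0.0098 FPKM and Col5a1 at 0.935 and 1.02. Both passed the filter there only with treated libraries counted, so their tests are no independent support.

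The lamin B1 transcript was first checked in the KD cells. Lmnb1 was at 29.2 and 36.5 FPKM in untreated control libraries and at 9.01 and 9.27 in untreated KD libraries. At 8 h the values were 32.8 and 32.1 against 7.79 and 8.14, and at 24 h 18.4 and 17.9 against 4.37 and 7.52. Every KD library was below every control library of its time. In parental cells Lmnb1 itself fell from 36.9 and 36.3 FPKM in untreated cells to 19.5 and 17.6 at 24 h and was at 34.15 and 34.43 at 8 h. Luminal epithelial markers were expressed in both tables (5 of 5, summing to at least 4317 FPKM in every library), while no endothelial marker and 1 of 5 leukocyte markers reached 1 FPKM in any library. Of the 5 fibroblast markers 2 reached 1 FPKM in the parental table and none in the shRNA table, and Pdgfra, which has a member at its start, was at most at 0.361 FPKM in parental cells. The 5 myoepithelial markers, of which 1 reached 1 FPKM, summed to 0.6003 to 6.189 FPKM in parental and 1.371 to 29.83 in shRNA libraries, and their part in the results was not tested. In bulk RNA, fewer cells of a kind and less RNA per cell cannot be told apart.

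Shares of genes called between KD and control cells are given beside those of all genes. In untreated cells 213 were called between KD and control (17.6%, against 19.7% of all genes), 108 higher (8.94% against 10.6%) and 105 lower (8.69% against 9.09%). At 8 h 465 were called (38.5%, against 35.8%), 244 higher (20.2% against 19.3%) and 221 lower (18.3% against 16.5%), of which 2 were higher and 2 lower by at least 2-fold (0.803% of all genes moved that far). At 24 h 358 were called (29.6%, against 28.3%), 214 higher (17.7% against 16.8%) and 144 lower (11.9% against 11.5%). These counts depended on single libraries. When 1 library was left out, the first count rose only without untreated control library 1. The third rose only without 24 h KD library 1. Each count fell without any other library of its time, the second without any 1 of the 4 libraries at 8 h. The first fell most without an untreated KD library, and the third most without a 24 h control library. The share of all genes called moved the same way each time.

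**Figure D5:**
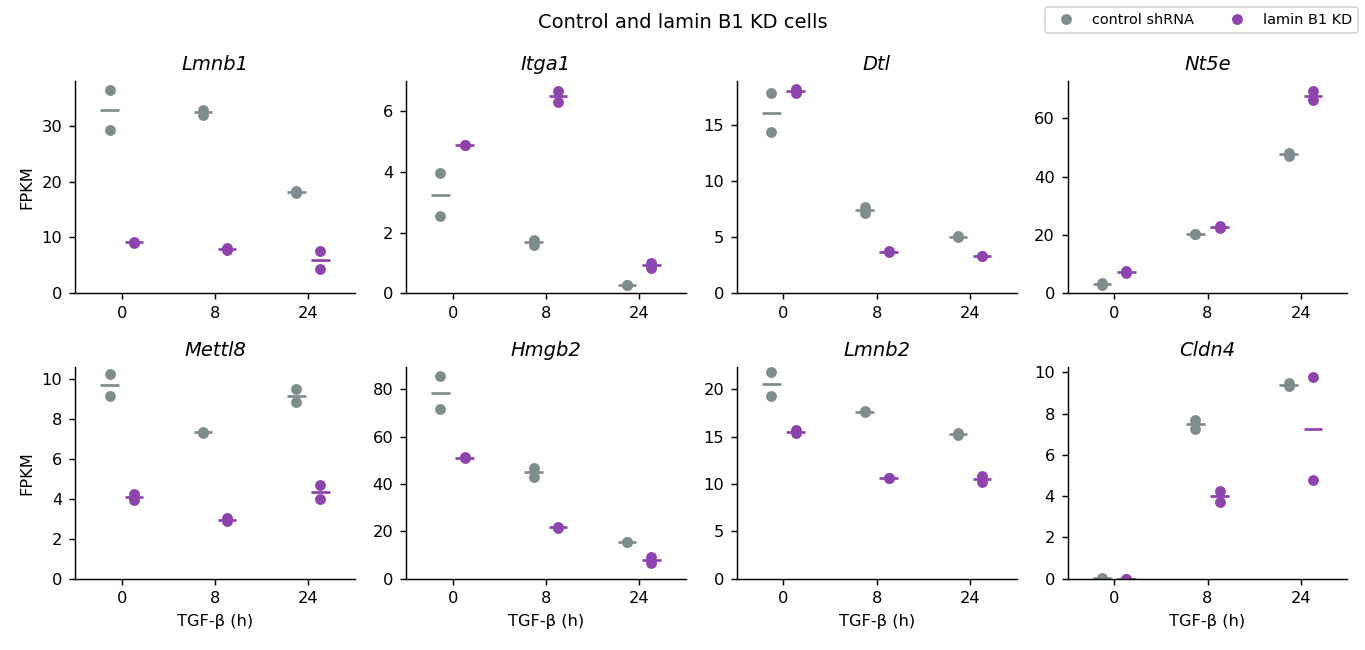
Expression (FPKM, linear axes from 0) by hours of TGF-β in control and KD cells, with a point for each library and a line at the group mean, for Lmnb1 and 7 genes with an 8 h only region at their start. Lmnb1, Lmnb2 and Mettl8 are lower in KD libraries at each time, Itga1 is higher in KD libraries at each time, and Nt5e rises in both.

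At 8 h Itga1, the α1 integrin that binds collagen, showed the largest rise in the KD cells among the genes named by rule. It was at 1.77 and 1.58 FPKM in control libraries and at 6.68 and 6.30 in KD libraries, a difference of 1.49 ± 0.13 (limma, adjusted p = 0.000143). Itga1 fell in control cells between 0 h (3.97 and 2.54) and 8 h, and in KD cells it went from 4.89 and 4.90 to 6.68 and 6.30. The next rises were those of the antiproliferative gene Btg2 (0.90 ± 0.15), Tcta (0.88 ± 0.12), the coagulation initiator F3 (0.85 ± 0.09) and the caveola protein gene Prkcdbp (0.81 ± 0.10). The rule that named these genes required that the libraries not overlap.

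Mettl8, a methyltransferase gene, was the most reduced, at 7.31 and 7.36 FPKM in control and 2.88 and 3.02 in KD libraries at 8 h (-1.08 ± 0.08, limma, adjusted p = 7.02e-05). It was also lower in untreated KD cells (4.24 and 3.92 against 9.12 and 10.2). Hmgb2 was at 43.2 and 46.8 against 21.5 and 21.9 (-1.02 ± 0.12), and Dtl, a substrate receptor of a replication-linked ubiquitin ligase, at 7.66 and 7.15 against 3.68 and 3.71 (-0.84 ± 0.08). Wdr6 (-0.88 ± 0.15) and Dbn1, an actin-binding drebrin (-0.84 ± 0.17), completed the 5 largest falls.

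Lmnb2 was lower in KD cells at every time, at 15.7 and 15.4 FPKM against 19.3 and 21.8 in untreated cells, 10.6 and 10.7 against 17.7 and 17.6 at 8 h (-0.68 ± 0.06, limma, adjusted p = 0.000111) and 10.2 and 10.8 against 15.4 and 15.2 at 24 h. Most of the matrix members were not called at 8 h, among them Col5a1 (0.07 ± 0.13), Col27a1 (0.13 ± 0.07) and Col16a1 (0.11 ± 0.07), and Col18a1 was lower by 0.26. Fn1 was at 83.6 and 78.8 FPKM in control and 84.2 and 73.8 in KD libraries at 8 h (-0.04 ± 0.30, adjusted p = 0.93), and its KD libraries at 24 h lay far apart, at 415.4 and 942.2. Nt5e was already higher in untreated KD cells (7.52 and 7.07 FPKM against 3.41 and 2.82) and was not called at 8 h (0.16 ± 0.07, adjusted p = 0.0913). Of the 18 ribosomal members 9 were lower in KD cells at 8 h as deposited, with a median difference of -0.18, where 16.5% of all genes were lower. Quantile normalization ended the calls of Rpl4, Rpl6, Rpl7, Rpl23, Rpl37 and Rps16, and of these Rpl4, Rpl7, Rpl23 and Rps16 then had values above 0. Each of these except Rpl7 also lost its call without 2 or more of the 4 libraries taken singly. Smaller 8 h differences, as in Cldn4 (-0.77 ± 0.23), Smoc2 (-0.72 ± 0.19), Clu (0.59 ± 0.15) and Id3 (-0.32 ± 0.10), were no longer called without any 1 of the 4 libraries.

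The response to 8 h of TGF-β differed between KD and control cells for 47 genes of the class (3.89%, against 4.06% of all genes), 30 with a more positive log2 change in the KD cells (2.48% against 2.45%) and 17 with a more negative one (1.41% against 1.61%). This comparison uses the same libraries as those above. The genes included Gga2, a trans-Golgi adaptor, at a mean of 16.6 FPKM in untreated and 25.4 in 8 h control cells and 14.3 and 40.6 in KD cells (0.86 ± 0.07, limma, adjusted p = 0.00198). The replication genes Mcm4, Timeless and Dtl were among those with a more negative response in KD cells (-0.77, -0.59 and -0.998), and Gga2, Mcm4 and Timeless were chosen here after their values were seen. The count depended on single libraries. It rose without control untreated library 2 and fell without any other single library of this comparison, least without control untreated library 1. The share of all genes called rose and fell with it.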

How the data were processed

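Lamin B1 ChIP-seq and ATAC-seq peak lists (1 library per time) and 2 FPKM tables of RNA-seq were used, and the Hi-C samples were not analysed here. The submitters' processing notes name Bowtie, TopHat, Cufflinks and the build mm9. The authors deposited MACS peaks, whose score column is used as they wrote it (the lowest is 50), and FPKM values, which scale fragments to transcript length and library size. Tool versions and the use of IgG in the calls are not given in the sources used here, and sequencing depth is unknown. The deposited parental table has no header, so its 2 libraries per time are called a and b and were not paired.

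Peaks of the 3 ChIP lists were merged where they touched, classes were set by the times present, and regions were placed in genes of GENCODE (NCBIM37), with a gene start counted within 500 bp. Base composition was read from the same genome. Overlap with an ATAC peak needed 1 bp. Genes were joined to the tables by symbol (21744 of 23295 parental and 21421 of 24247 shRNA rows). log2(FPKM + 1) was fitted with limma 3.58.1 in R 4.3.3, 1 fit per table over all its groups, on genes that reached 1 FPKM in 2 or more libraries, with Benjamini-Hochberg adjustment and a threshold of 0.05. The test was checked on simulated data. Adjusted p-values measure only the spread between these libraries. Python 3.11.15, numpy 2.4.6, pandas 2.3.3, scipy 1.17.1 and matplotlib 3.10.9 were also used.

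The members and gene lists were chosen with earlier results of these data known. Named genes are list members with a region at their start, genes of the 10 highest, 3 widest and lowest-scoring regions and of those at the edge of the rule, and the 5 largest rises and falls among called genes at 8 h, at 24 h and between KD and control cells at 8 h without overlap of libraries and with a mean of 5 FPKM or more in the higher group, with Lmnb1 and EMT genes for reference. A few genes that this rule names are not reported here. Alternatives were another pseudocount (0.1), no filter, quantile normalization, fits of only the groups compared, a replicate block, leaving out each library, other gene windows, equal list lengths, joining within 1000 bp and a score of at least 100.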

Additional observations from a re-analysis of the deposited data

Results flagged for a closer look

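The 8 h response differed between KD and control cells for 47 genes with an 8 h only region at their start. Their share was 3.89%, against 4.06% of all genes, by a test of the difference itself (limma, adjusted p under 0.05). The count depended on single libraries, as given above. Of the genes named by rule the 47 included Dtl (-0.998 on the log2 scale), Itga1 (0.99), Nt5e (-0.85) and Prkcdbp (0.63). Nt5e rose in both, from a higher untreated level in KD cells, and Prkcdbp was near the threshold (adjusted p = 0.0498). No group of samples here held 4 or more libraries, so single libraries were not tested for standing apart.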

How the results depend on the processing

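Over the counts and shares, 101 values under the alternatives stayed within 1.5 times, or 1 SD or interval, of the value reported and 35 moved. Of the values of genes named here 1496 kept their direction and side of the threshold, 110 lost the call, 33 gained one and 11 changed sign. The cause was not tested except where fewer libraries or more genes entered a fit. With no filter on low values the share of tested members called between KD and control was 10.52% at 0 h, 24.96% at 8 h and 18.98% at 24 h (10.93%, 19.81% and 15.76% of all genes), and that of the response difference 2.243% (1.852%). With only the groups compared the shares were 9.216% at 0 h, 8.662% at 24 h and 6.454% for the response difference (10.15%, 8.359% and 6.44% of all genes). For coding genes whose span held a member in an exon (a set chosen after seeing the data), the response difference was called in 2.509% (4.061% of all genes). Leaving out single libraries gave 42.03% to 52.64% at 8 h and 57.64% to 62.68% at 24 h in parental cells, 34.7% to 47.61% from 8 to 24 h, 54.93% to 62.07% for the control shRNA response, 5.228% to 21.56%, 21.69% to 23.12% and 11.76% to 37.65% between KD and control at 0, 8 and 24 h, and 0.166% to 13.53% for the response difference. The shares of all genes called moved alongside these. With lists of equal length 1272 regions (15.39%) were seen at 8 h only, and with a score of at least 100 in every list 1628. With at least 50% of the region covered, the ATAC overlap was 18.02%, 12.82% and 30.57% at 0, 8 and 24 h, with ATAC lists of equal length 17.89% at 24 h, and with members scoring at least 100 it was 27.38%, 22.22% and 42.86%. With quantile normalization the 24 h values of Rpl23 (0.087), Rpl6 (0.058), Rps25 (0.0106), Rps26 (0.12) and Rps6 (0.0833) and the 8 h KD values of Rpl23 (0.11), Rpl4 (0.12), Rpl7 (0.0504), Rps16 (0.0323), Rps21 (0.22) and Rps25 (0.23) changed sign.

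With a replicate block in the shRNA fit, 791 members were called for the control response (65.48%, against 63.81% of all genes). Between KD and control 204, 457 and 328 were called at 0, 8 and 24 h (16.89%, 37.83% and 27.15%, against 18.69%, 34.96% and 26.72%). The response difference was called for 35 (2.897%, against 2.48%). Equal replicate numbers were not shown to pair libraries, since deviations correlated over 0.1 in 2 of 15 pairs of groups. The parental columns carry no replicate number. Depth is unknown, so shares of regions carry counting error only.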

Other observations

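Protein-coding genes whose span held a member in an exon, with no lamin B1 peak at their start, were counted as a set chosen after seeing the data. The exon could belong to the gene itself or to another gene overlapping it. Of 282 such genes tested in parental cells, 102 rose at 8 h (36.2%, against 22.4% of all genes) and 58 fell (20.6% against 32.1%), and 134 rose (47.5% against 33.4%) and 73 fell (25.9% against 37.1%) at 24 h. In control shRNA cells 81 of 279 rose (29.0% against 19.4%) and 104 fell (37.3% against 44.9%) at 8 h, and with quantile normalization these counts became 101 and 57 (36.2% and 20.43%, against 26.92% and 31.65% of all genes). Between KD and control cells at 8 h 57 were higher and 36 lower (20.4% and 12.9%, against 19.3% and 16.5%). The 8 h response difference was called for 7 (2.51%, against 4.06% of all genes). Of these 3 were more positive (1.08% against 2.45%) and 4 more negative (1.43% against 1.61%). The difference from genes with a member at the start was not tested. Their median level in parental cells was 2.362, 2.661 and 3.359 FPKM at 0, 8 and 24 h.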
